A study of Homo sapiens with 12 samples.

Results

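Gamma-secretase is the membrane protease that makes the last cut in the activation of the Notch receptors. Its APH1A subunit and 8 further genes of the enzyme and of the Notch receptors and their ligands were followed over 12 arrays of MDA-MB-231, an established triple-negative breast cancer cell line. The 9 genes were chosen by name: APH1A, APH1B, PSEN2, NCSTN and PSENEN for the protease, NOTCH1, NOTCH2 and NOTCH3 for the receptors, and JAG1 for the ligand. The choice was made with earlier results of these data known. A probe was assigned to a gene through the transcript that the array design gives for it, and all 9 genes were among the 18252 that could be tested. Other gamma-secretase genes were not analysed here.

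The agents were a precursor of the microRNA miR-145-5p, called the mimic, or its negative control at 5 nM, and Dicer-substrate siRNAs (DsiRNAs) against AGO2 or their negative control at 500 pM for 72 h. The comparison addressed which effects of the microRNA need Ago2, a member of the Argonaute family of proteins that microRNAs guide to their target mRNAs. In the group cntrl the cells received the control oligonucleotides for both. The group mimic145 overexpressed miR-145, the group sirnaAGO2 was silenced for AGO2, and the group sirnaAGO2+mimic145 had both treatments. The labels do not say whether mimic145 cultures also received the control DsiRNA, or sirnaAGO2 cultures the control precursor. For the design of the arrays the paper refers to its preceding experiments. In its migration assay the control precursor or the mimic was given to cells with or without AGO2 depletion, the undepleted ones with a control siRNA. Each group had 3 arrays, which the labels call a biological triplicate, and all 12 came from 1 cell line. Values are the log2 of the quantile normalized signal of a gene, averaged over its probes. A gene was called where its adjusted p was under 0.05 in a limma fit that blocked on the replicate number. A signal from bulk RNA does not separate less RNA per cell from fewer cells that hold it.

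The enzyme is built around a catalytic presenilin, with nicastrin as the largest subunit, APH1 as the scaffold that binds nicastrin first, and PEN-2, the product of PSENEN, as the last subunit to join. A ligand such as Jagged1 on a neighbouring cell pulls on a Notch receptor, the sheddase ADAM10 removes its outer part, and gamma-secretase then frees the intracellular domain, which enters the nucleus and binds RBPJ at target genes. In triple-negative breast cancer the pathway is known for its part in migration and in the upkeep of stem-like cells.

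The mature microRNA is shown because its seed, bases 2 to 8 in capitals, is the part that pairs with target mRNAs. The sequence is the RefSeq entry in GRCh38.p14, at chr5:149430661-149430683 on the plus strand.
hsa-miR-145-5p: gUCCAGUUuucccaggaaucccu
Pairing sites for this seed in the 9 mRNAs were not searched.

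AGO2, the silenced gene, was read first. Its signal was 9.21, 9.14 and 9.01 in the cntrl arrays and 8.35, 8.44 and 8.42 in the sirnaAGO2 arrays, a fall by 0.71 (SE 0.0761, limma adjusted p = 0.00492). With the mimic it was 9.44, 9.36 and 9.39 without silencing and 8.27, 8.35 and 8.41 with it. The silenced arrays were thus all below the others, and 61.0% of the AGO2 signal was left in the absence of the mimic. In cells without silencing the mimic arrays were 0.28 above cntrl (SE 0.0761, limma adjusted p = 0.0298). The share of spots well above background ran from 60.5% to 77.3% between arrays. Each slide held 2 arrays of the same replicate number, with the mimic array always in position 2, so that the mimic and the position cannot be told apart. No slide held both a silenced and an unsilenced array, so every comparison of silencing also runs between slides. VIM, CD44, AXL, MSN, CAV1, ANXA1 and EGFR, markers of this mesenchymal line, were well above background in 96.2% or more of their spots. Of the markers expected to be low, PGR was above background in 9.26%, ESR1 in 40.2% and CDH1 in 42.5% of spots, while EPCAM stood at 86.7% and KRT19 and GATA3 at 100%. PTPRC, CD3E, PECAM1, CDH5, COL3A1 and MLANA, markers of other cell types, were above background in 15.7% to 53.6% of spots. Marker signal moved with the mimic. The summed linear signal of the 7 markers of the line was 50082 to 54232 in the cntrl arrays and 46909 to 49181 in the mimic145 arrays, and that of the 5 testable markers expected to be low was 11320 to 12244 and 13629 to 14463. In silenced cells the former sum was 46817 to 49932 without and 47851 to 51383 with the mimic, and the latter 10199 to 11552 and 11375 to 12151. The part of these shifts in the changes of the 9 genes was not tested.

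In control cells the mimic changed 5 of the 9 genes. APH1A and NCSTN fell together, NOTCH2 fell by a smaller amount, and NOTCH1 and JAG1 rose. The call was met by 22.6% of all genes in this comparison, 11% lower and 11.6% higher, so that many other genes moved as well. Over the 9 genes the median change was 0.03, against 0.01 over all genes. In 5 of the 9 the mimic145 and cntrl arrays did not overlap, which held for 28.4% of all genes. Because earlier results were known when the genes were chosen, these counts describe the 9 and are no test against the shares of all genes. The plot of the signal of each array shows these 5 genes beside the 4 that did not pass.

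**Figure D1:**
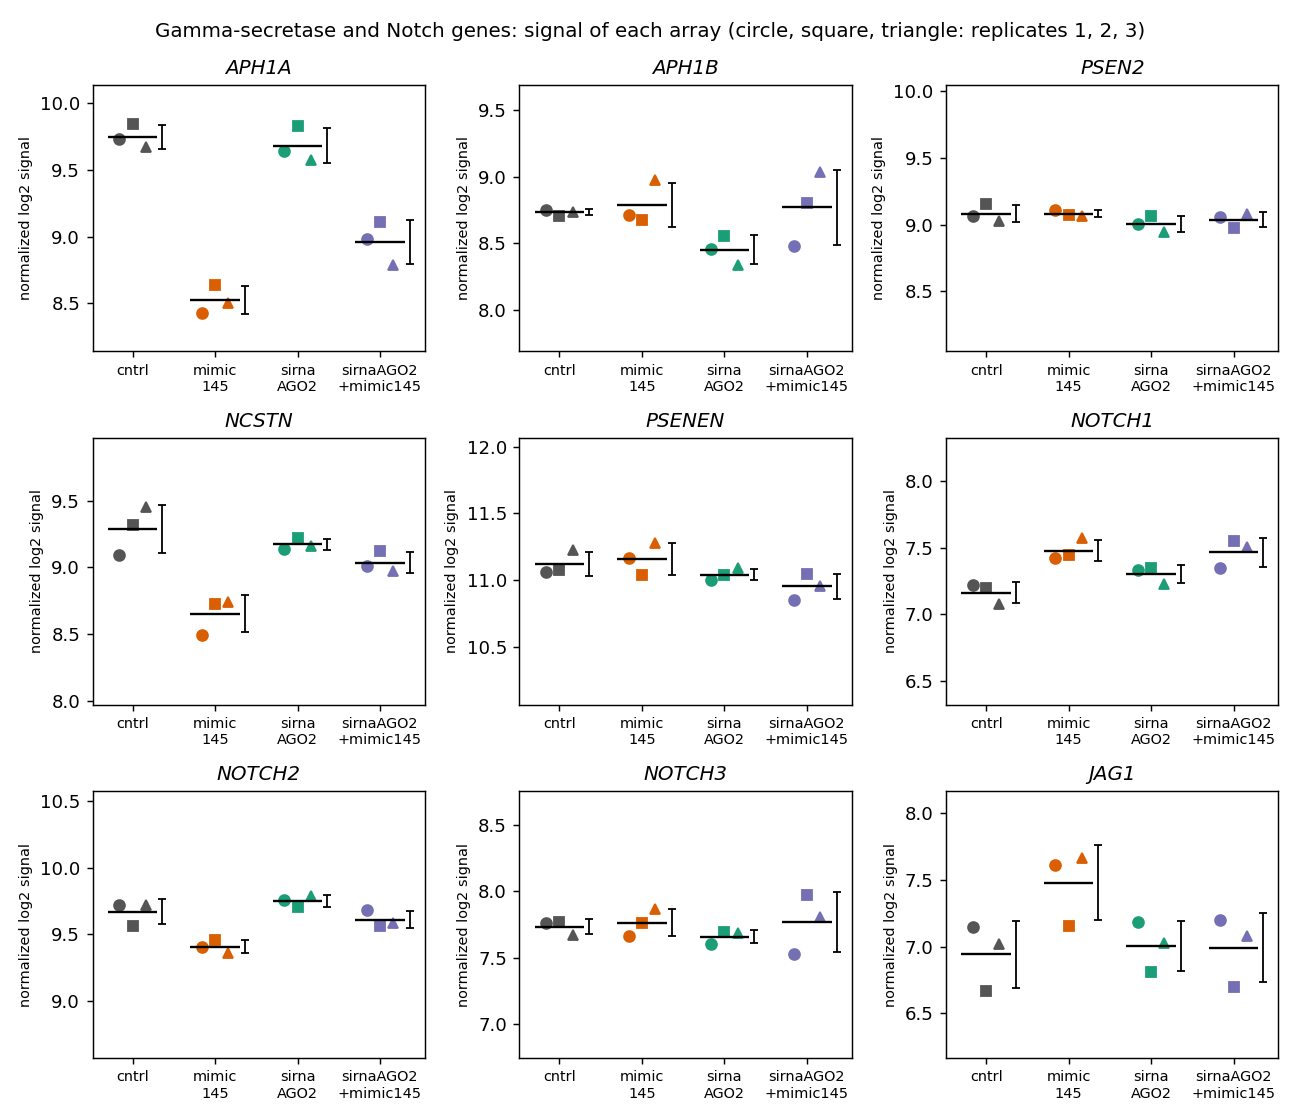
Normalized log2 signal (vertical axis) of the 9 genes by group (horizontal axis), with replicates 1, 2 and 3 as circle, square and triangle. Horizontal lines are group means, bars the SD of 3 arrays, and each panel spans the same height on the log2 scale; APH1A drops from 9.75 in cntrl to 8.52 in mimic145 and stands at 8.96 in sirnaAGO2+mimic145.

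APH1A had the largest change of the 9 genes. Its signal was 9.73, 9.85 and 9.67 in the cntrl arrays and 8.43, 8.64 and 8.51 in the mimic145 arrays. Every mimic145 array was thus more than 1 log2 unit below every cntrl array. The fall was 1.23 on the log2 scale (SE 0.0676, 95% interval -1.38 to -1.07, limma adjusted p = 3.2e-05), which left 42.7% of the signal. It was the 93rd largest fall among the 18252 genes. The replicate pairs gave -1.30, -1.21 and -1.16. APH1A is also in the study's own list of lowered targets of miR-145-5p. The paper describes these as genes lowered on these arrays that the miRTarBase repository already listed as direct targets of the microRNA. Because that list was chosen in part on these arrays, the fall is not independent evidence of the place of APH1A in it.

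Silencing of AGO2 alone left APH1A near its control level, with 9.64, 9.83 and 9.58 in the sirnaAGO2 arrays. These values overlapped those of cntrl, and the difference was -0.07 (95% interval -0.22 to 0.09, limma adjusted p = 0.629). When the silenced cells received the mimic, APH1A read 8.99, 9.11 and 8.78. All 3 of these arrays lay below the sirnaAGO2 arrays and above the mimic145 arrays. The fall with the mimic was 0.72 in silenced cells (SE 0.0676, 95% interval -0.88 to -0.57, limma adjusted p = 0.00208), which left 60.5% of the signal. Without replicate 2, or without replicate 3, the fall was 0.73 and 0.69 and no longer passed, with limma adjusted p = 0.101 and 0.103. In either of these fits 0 of all 18252 genes passed in this comparison.

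The fall of APH1A was smaller in silenced cells in each of the 3 replicates, by 0.65, 0.49 and 0.37. The share of the log2 change that remained was 50.4%, 59.5% and 68.3%, a mean of 59.4% ± 8.94 (SD, n = 3). The difference between the falls was 0.50 (SE 0.0956, 95% interval 0.29 to 0.72) and did not pass after adjustment over all genes (limma adjusted p = 0.0817). Only 0.011% of all genes, 2 in number, passed this test. Set directly against mimic145, the sirnaAGO2+mimic145 arrays were 0.44 higher (limma adjusted p = 0.0138). That call was lost without the replicate block (limma adjusted p = 0.126), with the slide as a random block, and without any 1 of the replicates.

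All 8 probes of APH1A told the same direction. They are assigned to 3 transcripts of the gene and were well above background on all 12 arrays. In a fit to single probes the mimic lowered all 8 in control cells, by -1.44 to -0.94, and all 8 in silenced cells, by -0.84 to -0.55, each with limma adjusted p under 0.05. Over all 142919 probes 7.28% were called lower in control cells and 0.891% in silenced cells. The difference between the falls was above 0 for all 8 probes, from 0.24 to 0.67, and was called by limma for 0 of them, with 7 at an unadjusted p under 0.05. Of all 142919 probes 0 passed this test after adjustment, and those at an unadjusted p under 0.05 were not counted over all probes.

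**Figure D2:**
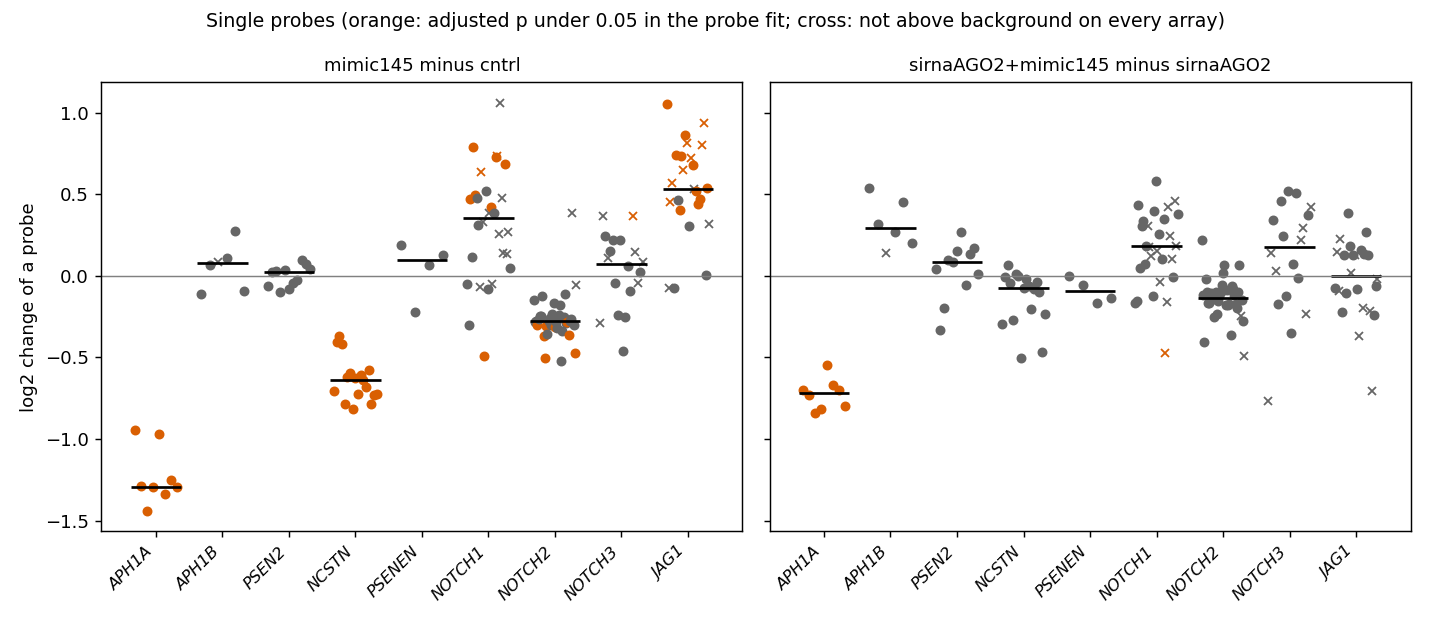
Log2 change of single probes with the mimic (vertical axis) for each of the 9 genes (horizontal axis), in control cells on the left and in AGO2-silenced cells on the right. Each point is a probe, orange where its limma adjusted p was under 0.05 and a cross where it was not well above background on all 12 arrays; horizontal lines are medians over probes. All 8 APH1A probes are orange in both panels, while the 17 NCSTN probes are orange on the left only.

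APH1B, the paralog that can take the place of APH1A in the enzyme, did not pass in any comparison. Its signal was 8.75, 8.71 and 8.74 in cntrl and 8.71, 8.67 and 8.98 in mimic145. These groups overlapped, and the difference was 0.06 (95% interval -0.23 to 0.34, limma adjusted p = 0.795), an interval that does not reach the estimate for APH1A. In the sirnaAGO2 arrays APH1B read 8.45, 8.56 and 8.34, all below cntrl. That difference of -0.28 had an interval from -0.57 to 0.01 and a limma adjusted p of 0.272, and all 6 probes of APH1B had estimates below 0. With both treatments it read 8.48, 8.80 and 9.04, a wide spread in which replicate 3 was 0.70 above its sirnaAGO2 partner and replicate 1 only 0.02. The mean difference of 0.32 passed before adjustment and not after it (limma adjusted p = 0.139).

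NCSTN, which encodes nicastrin, the subunit that receives substrates, fell with the mimic in control cells. Its signal was 9.09, 9.32 and 9.45 in cntrl and 8.49, 8.72 and 8.74 in mimic145. The groups did not overlap, and the fall was 0.64 (SE 0.0839, 95% interval -0.83 to -0.45, limma adjusted p = 0.00112), to 64.4% of the signal. In the pairs it was -0.60, -0.60 and -0.71. All 17 NCSTN probes, from 3 transcripts, were lower with the mimic and called, by -0.81 to -0.37.

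In silenced cells NCSTN read 9.13, 9.22 and 9.16 without the mimic and 9.01, 9.12 and 8.97 with it. The mimic arrays were again below the others, but by a small margin. The difference was -0.14 (95% interval -0.33 to 0.05, limma adjusted p = 0.312), and 15 of the 17 probes were below 0. Limma called 0 of the 17, and 4 were at an unadjusted p under 0.05. Of the log2 change in control cells, 21.0%, 15.9% and 26.6% remained in the 3 replicates, a mean of 21.2% ± 5.34 (SD, n = 3). The difference of the mimic effects was 0.50 (SE 0.119, 95% interval 0.23 to 0.77) and lay above 0 for all 17 probes, yet its limma adjusted p was 0.105. Against mimic145, the sirnaAGO2+mimic145 arrays were 0.38 higher (limma adjusted p = 0.0401). This last call was lost in 19 of 27 alternative settings, among them the fit without the replicate block, with limma adjusted p = 0.165.

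PSEN2, a catalytic presenilin, gave 9.07, 9.15 and 9.03 in cntrl and 9.11, 9.07 and 9.06 in mimic145. All 4 groups overlapped, and the means of PSEN2 spanned only 0.08. The mimic effect was -0.00 in control cells (95% interval -0.15 to 0.15) and 0.03 in silenced cells (95% interval -0.12 to 0.18). PSENEN read 11.06, 11.07 and 11.22 in cntrl and 11.17, 11.04 and 11.28 in mimic145, with a mimic effect of 0.04 (95% interval -0.13 to 0.21). In silenced cells it was -0.09 (95% interval -0.26 to 0.08). With the mimic in control cells 0 of the 11 PSEN2 and 0 of the 4 PSENEN probes were called by limma, and 0 were at an unadjusted p under 0.05. The PSENEN probes were split by transcript: 1 was at -0.22 and the 3 of another transcript were at 0.06 to 0.19. Each of the 4 kept its sign in all 3 pairs, so that the mean of PSENEN joins probes of opposite direction. The sirnaAGO2+mimic145 arrays of PSENEN were 0.21 below those of mimic145, and that difference, -0.21, did not pass (limma adjusted p = 0.157).

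**Figure D3:**
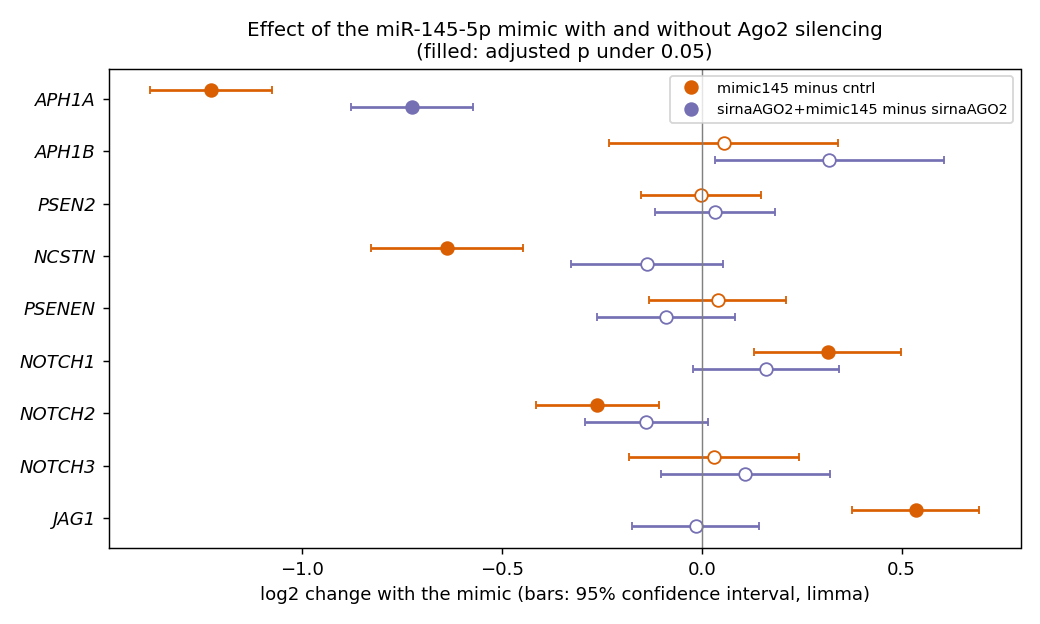
Log2 change with the mimic (horizontal axis) for the 9 genes (vertical axis), in control cells (orange) and in AGO2-silenced cells (purple), with 95% confidence intervals of limma and filled points where the adjusted p was under 0.05. In control cells 5 genes are filled, and in silenced cells APH1A alone.

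Among the receptors, NOTCH1 and NOTCH2 moved in opposite directions with the mimic in control cells. NOTCH1 read 7.22, 7.20 and 7.08 in cntrl and 7.42, 7.45 and 7.57 in mimic145. All mimic145 arrays were higher, and the rise was 0.32 (SE 0.0810, 95% interval 0.13 to 0.50, limma adjusted p = 0.0226). Its probes were mixed: 22 of 28 were higher, of which 8 were called, and 1 was called lower, over a range from -0.49 to 1.06. Of the 28, 1 was not well above background on any cntrl array and was kept through another group. Among the 16 that were above background on all 12 arrays, 12 were higher and 6 of them called, and 1 was called lower, from -0.49 to 0.79. The estimate of the gene was 0.49 with the median over probes and 0.18 after normexp background correction, and its call was lost in 11 of 27 alternatives. Leaving out any 1 replicate was among these, with changes of 0.22 to 0.37.

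In silenced cells NOTCH1 read 7.33, 7.35 and 7.23 without the mimic and 7.34, 7.55 and 7.50 with it. The mimic array was higher in all 3 pairs, by 0.16 on average (95% interval -0.02 to 0.34, limma adjusted p = 0.226), and the groups overlapped. The sirnaAGO2 arrays of NOTCH1 all lay above cntrl, by 0.14 (95% interval -0.04 to 0.32, limma adjusted p = 0.387). The mimic effect of NOTCH1 was 0.16 in silenced and 0.32 in control cells, and the difference of -0.15 was not called (95% interval -0.41 to 0.10, limma adjusted p = 0.510).

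NOTCH2 read 9.72, 9.56 and 9.72 in cntrl and 9.41, 9.45 and 9.36 in mimic145. Again no array overlapped, and the fall was 0.26 (SE 0.0681, 95% interval -0.42 to -0.11, limma adjusted p = 0.0241). It was seen in 34 of 35 probes, of which 8 were called, and the exception at 0.39 was not well above background on all arrays. NOTCH2 shares near-identical sequence with the NOTCH2NL genes, so its probes may also read those. The call was lost in 13 of 27 alternatives, the fit without the replicate block (limma adjusted p = 0.0701) and the fits without any 1 replicate included, while the change stayed between -0.34 and -0.21.

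In silenced cells NOTCH2 read 9.76, 9.70 and 9.79 without the mimic and 9.68, 9.56 and 9.59 with it. Every mimic array was lower, by 0.08, 0.14 and 0.20 in the pairs. The mean of -0.14 (95% interval -0.29 to 0.02) did not pass (limma adjusted p = 0.215). The difference from control cells was 0.12 (95% interval -0.10 to 0.34, limma adjusted p = 0.535).

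Among NOTCH1, NOTCH2 and NOTCH3, NOTCH3 had the smallest share of probes above background, with 18 of its 33 probes kept and 11 above background on all arrays. Its signal was 7.76, 7.77 and 7.67 in cntrl and 7.67, 7.76 and 7.87 in mimic145. The groups overlapped, with a difference of 0.03 (95% interval -0.18 to 0.24, limma adjusted p = 0.848). In silenced cells NOTCH3 read 7.60, 7.69 and 7.69 without the mimic and 7.53, 7.97 and 7.81 with it. That difference of 0.11 ran from -0.10 to 0.32, and its limma adjusted p was 0.469.

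JAG1, the ligand, rose with the mimic in control cells. It read 7.15, 6.66 and 7.02 in cntrl and 7.61, 7.15 and 7.67 in mimic145. Replicate 2 was the lowest in every group, so that the lowest mimic145 array was barely above the highest cntrl array, while the pairs rose by 0.47, 0.49 and 0.65. The rise was 0.54 (SE 0.0700, 95% interval 0.38 to 0.69, limma adjusted p = 0.00108), or 1.45-fold. Without the replicate block the same difference did not pass (limma adjusted p = 0.0898), and after normexp background correction it was 0.34. Of the 24 probes 22 were higher and 17 called, and among the 14 that were above background on all 12 arrays 13 were higher and 10 called. The share of all probes called higher was 8.1%.

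In silenced cells JAG1 read 7.18, 6.81 and 7.03 without the mimic and 7.20, 6.70 and 7.08 with it. These values lay on both sides of each other, with a difference of -0.01 (95% interval -0.17 to 0.14, limma adjusted p = 0.913). The difference of the mimic effects was -0.55 (SE 0.0989, 95% interval -0.77 to -0.33), negative in all 3 replicates. It had the smallest adjusted p of the 9 genes in this test, 0.0778 by limma, and did not pass. Against mimic145, the sirnaAGO2+mimic145 arrays of JAG1 were lower by 0.49 (limma adjusted p = 0.0100), with 23 of 24 probes below 0 and 5 called, against 0.723% of all probes called lower. Of the 14 probes above background on all 12 arrays, 14 were below 0 and 2 called. The call of the gene was lost without the replicate block (limma adjusted p = 0.302), with the slide as a random block, and without any 1 of the replicates.

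Counted over the 9 genes, the mimic in silenced cells gave 1 call, APH1A, which was lower, where 7.27% of all genes were called and 3.03% were called lower. Silencing alone gave 0 calls by limma, where 2.58% of all genes were called. It gave 0 at an unadjusted p under 0.05, where 3464 of all 18252 genes were. Between sirnaAGO2+mimic145 and mimic145 there were 3 calls, APH1A and NCSTN higher and JAG1 lower, where 4.31% of all genes were called, 1.86% higher and 2.44% lower. For the difference of the mimic effects there were 0 calls by limma, where 0.011% of all genes were called. APH1A, NCSTN and JAG1 were at an unadjusted p under 0.05, as were 3058 of all 18252 genes. These comparisons share arrays, and each is given by its own values. APH1A and NCSTN had the same order of group means, from cntrl over sirnaAGO2 and sirnaAGO2+mimic145 to mimic145. Among neighbours in this order only cntrl and sirnaAGO2 overlapped. In NCSTN cntrl also overlapped sirnaAGO2+mimic145, with 9.09 in cntrl replicate 1 and 9.12 in sirnaAGO2+mimic145 replicate 2. In PSEN2, PSENEN, NOTCH3 and JAG1 no neighbours in the order of means were apart.

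Across the 12 arrays, with the mean of each replicate removed, the genes of 13325 with at least 3 probes whose signal followed APH1A most closely were TMEM9B (Pearson r 0.997), AKR1B1 (0.993), HOMER2 (0.991), FTH1 (0.990) and IGF2R (0.990). The arrays share the treatments, so these values describe likeness alone. Of the other 8 genes, NCSTN stood at 0.921 and NOTCH2 at 0.865, while NOTCH1 was at -0.808 and JAG1 at -0.783.

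The steps around gamma-secretase were read in 78 further genes of the pathway, of which 76 could be tested. With the mimic in control cells 5 of the 76 fell and 10 rose, where 11% and 11.6% of all genes were called, and the median change was 0.01, the same as over all genes. In silenced cells 1 fell and 3 rose, where 3.03% and 4.24% of all genes were called. With silencing alone limma called 0 of the 76, where 2.58% of all genes were called. At an unadjusted p under 0.05 were 8 of the 76, against 3464 of all 18252 genes. Between sirnaAGO2+mimic145 and mimic145, DTX3 and EFNB2 were called lower and NGFR and SORL1 higher, where 2.44% and 1.86% of all genes were called. In the order named, these calls were lost in 24, 5, 10 and 23 of 27 alternatives. For the difference of the mimic effects limma called 0 of the 76, where 0.011% of all genes were called. At an unadjusted p under 0.05 were 6 of the 76, against 3058 of all 18252 genes. The plot of the further genes shows the 17 that passed with the mimic in control or in silenced cells.

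**Figure D4:**
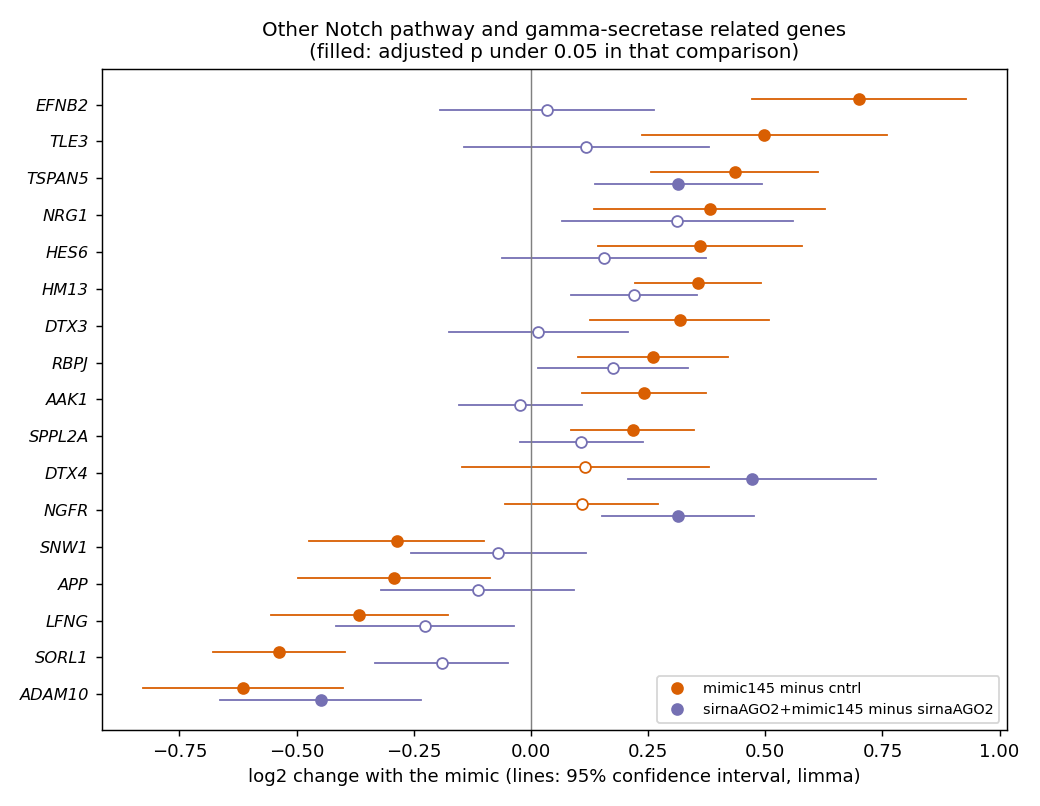
Log2 change with the mimic (horizontal axis) for the genes of the wider pathway that passed in control or in AGO2-silenced cells (vertical axis), orange for control and purple for silenced cells, with 95% confidence intervals of limma and filled points where the adjusted p was under 0.05. ADAM10 and TSPAN5 are filled in both, at -0.61 and 0.43 in control cells.

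Upstream of the 9 genes, ADAM10, the sheddase that cuts Notch before gamma-secretase, fell by 0.61 with the mimic in control cells (limma adjusted p = 0.00219) and by 0.45 in silenced cells (limma adjusted p = 0.0312). TSPAN5, a tetraspanin that escorts ADAM10, rose by 0.43 and 0.31, with limma adjusted p = 0.00478 and 0.0468. In control cells the calls were lost in 2 of 27 alternatives for ADAM10 and in 3 for TSPAN5, but in silenced cells in 15 and 22. LFNG, a glycosyltransferase that modifies Notch, fell by 0.37 in control cells (limma adjusted p = 0.0141), but its estimate was 0.25 with the median over its 5 probes, and 9 more alternatives lost the call. Of the list of 8 genes that holds the further ligands and the receptor NOTCH4, limma called 0 with the mimic in control or silenced cells, and 0 were at an unadjusted p under 0.05. Of all genes 22.6% were called in control and 7.27% in silenced cells. At an unadjusted p under 0.05 were 6461 and 5258 of all 18252 genes.

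In the trafficking of receptors and ligands, the kinase AAK1 rose by 0.24 and the Deltex family gene DTX3 by 0.32 in control cells, with limma adjusted p = 0.0176 and 0.0261. DTX4 of the same family passed in silenced cells alone, at 0.47 (limma adjusted p = 0.0455), and its difference of mimic effects, 0.36, was not called (limma adjusted p = 0.320). These calls were lost in 11 of 27 alternatives for AAK1, 12 for DTX3 and 21 for DTX4. The estimates ran from 0.06 to 0.61 for DTX3 and from 0.06 to 0.72 for DTX4.

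Downstream, the Notch DNA-binding partner RBPJ rose by 0.26 in control cells (limma adjusted p = 0.0289) and its corepressor TLE3 by 0.50 (limma adjusted p = 0.0150), while SNW1, a cofactor of the nuclear complex, fell by 0.29 (limma adjusted p = 0.0359). The calls were lost in 13 of 27 alternatives for RBPJ, 7 for TLE3 and 15 for SNW1. Of 8 target genes tested 1 passed, HES6 at 0.36 (limma adjusted p = 0.0264), where 22.6% of all genes were called, and 10 of 27 alternatives lost that call. HES1 read 0.19 above cntrl (limma adjusted p = 0.489) and HEY1, on a single probe, -0.70 (limma adjusted p = 0.167). Both were picked after their values were seen, and the other targets that did not pass are only counted. Among other substrates of the enzyme EFNB2 rose by 0.70 (limma adjusted p = 0.00162), NRG1 rose by 0.38, SORL1 fell by 0.54 (limma adjusted p = 0.000663) and APP fell by 0.29. NGFR, a neurotrophin receptor, rose with the mimic in silenced cells, by 0.31 (limma adjusted p = 0.0379). EFNB2 was 0.03 above its partner group in silenced cells (limma adjusted p = 0.851), and its difference of mimic effects, -0.67, had a limma adjusted p of 0.0915. HM13 and SPPL2A, related intramembrane proteases, rose by 0.36 and 0.22. The calls of EFNB2 and SORL1 in control cells were lost in 1 of 27 alternatives each, and that of HM13 in 4. Those of SPPL2A (14 of 27, estimates from 0.02 to 0.24), NRG1 (16 of 27, estimates from 0.20 to 0.51), APP (18 of 27) and NGFR in silenced cells (18 of 27) were lost more often.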

How the data were processed

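Total RNA of 12 MDA-MB-231 cultures was labelled with a single dye (Cy3) and read on Agilent exon arrays of the SurePrint G3 human 2x400K format, and the authors extracted the signals with Feature Extraction 10.7.3.1. The deposited scanner files hold each spot's processed intensity, corrected by the authors for background and spatial trend and not scaled between arrays. A further deposited table holds log2 values of 217027 probes that the authors had quantile normalized, and it served as an alternative. Groups and replicate numbers come from the labels.

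Control spots and the 304 to 462 outlier spots of an array were left out, and 0 spots were saturated. The number of arrays, 3 a group, limits the precision; the median SE of a log2 change was 0.0990. The floor of 1 on intensity touched 0 spots. Values were quantile normalized, log2 transformed and averaged over the spots of a probe. Transcript accessions, matched to RefSeq, named a gene for 209671 of 233164 probes (89.9%), 20708 genes in all. A probe was kept if every spot of it was well above background on the 3 arrays of some group; 142919 probes of 18252 genes were kept. A gene value is the mean of its kept probes.

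The 4 groups and a block for the replicate number were fitted by limma (lmFit, eBayes), two-sided, and p-values were adjusted by Benjamini-Hochberg over all genes in each comparison; single probes were fitted likewise. The pairing comes from the numbers in the labels and the paired test in the paper's methods. Deviations from the group mean correlated at 0.148 to 0.576 between arrays of the same number and at -0.497 to 0.201 otherwise. All slides were scanned on 1 day, and no slide held both an AGO2-silenced and an unsilenced array.

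Alternatives were 75th percentile scaling; normexp (offset 50); the deposited log2 table; no dim-probe filter or a stricter one; medians in place of means over probes; fits with no block for the replicate, with the slide in its place, or with an intensity trend; fits to only the arrays compared; the methods' t-test; and leaving out replicates and arrays. The genes named are the 9 members, genes of the pathway lists that passed, a pair of well-known targets, and the 5 genes most like APH1A. HES1 and HEY1 were picked after their values were seen. The members and lists were chosen with earlier results of these data known. Computations ran in R 4.3.3 with limma 3.58.1 and the package data.table, version 1.17.8, and figures were drawn in Python 3.11.15 using matplotlib 3.10.9 and pandas 2.3.3; the model was tested on simulated data. Array coordinates are in hg19 and are not printed.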

Additional observations from a re-analysis of the deposited data

How the results depend on the processing

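The 9 called changes of members kept their direction in all 243 values under the alternatives; 175 kept the call and 68 lost it. In control cells the 5 called members with the mimic became 3 without the replicate block, with the slide as a fixed block, with only the arrays compared, and by the methods' t-test before adjustment, and 0 by that t-test after adjustment, under which 0 of all genes passed; leaving out replicates or arrays gave 3 to 5. APH1A and NCSTN kept their fall and call in 26 of 27 alternatives each (-1.28 to -1.07 and -0.70 to -0.52), JAG1 in 25, NOTCH1 in 16 and NOTCH2 in 14. In silenced cells the 1 call became 2 with only probes above background on all 12 arrays and by the unadjusted t-test, and 0 with only the arrays compared and by the adjusted t-test; leaving out replicates or arrays gave 0 to 2. For silencing alone the unadjusted t-test gave 2. For sirnaAGO2+mimic145 against mimic145 the 3 calls became 1 with the median over probes and 0 without the replicate block, with the slide as a random block, with only the arrays compared and by the adjusted t-test; leaving out replicates or arrays gave 0 to 3. For the difference of the mimic effects the 0 calls became 1 with normexp (APH1A) and with an intensity trend (APH1A), 2 with only probes above background on all 12 arrays (APH1A, JAG1) and 3 by the unadjusted t-test. With the mimic in control cells the 60 called probes of members became 27 without the replicate block and, without a replicate, 9 to 24. LFNG was 0.25 with the median over probes. The causes were not tested.

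Over all genes, the 4119 calls with the mimic became 1997 without the replicate block and 1826 with only the arrays compared. The 1327 in silenced cells ranged from 0, with only the arrays compared, through 78, without the replicate block, to 2391 with 75th percentile scaling, which moved the median of all genes to 0.11 and the share of higher calls from 58.3% to 80.1%. The 471 with silencing alone became 36 with the slide as a random block, 1116 with only probes above background on all 12 arrays, and 1, 10 and 0 without replicates 1, 2 and 3. The 786 for sirnaAGO2+mimic145 against mimic145 became 3, 12 and 0 without these replicates, the 1327 became 386, 0 and 0, and the 4119 became 1211, 2327 and 1701. The 2 for the difference of effects became 291 with only probes above background on all 12 arrays. Of the 9 genes APH1B had the largest SE, 0.127. Only 16 of 33 NOTCH1, 11 of 33 NOTCH3 and 14 of 26 JAG1 probes were above background on all 12 arrays.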
